A study of Mus musculus with 2 samples.

Results

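The cytosolic ribosomal protein genes were described in mouse leukemia stem cells. These were 84 of 21474 protein-coding genes, 32 encoding proteins of the small ribosomal subunit and 52 of the large one, chosen by gene symbol. A gene was a member if its symbol was Rpl or Rps with a number, or was Rplp0, Rplp1, Rplp2 or Rpsa; Rps6k kinases and symbols of pseudogenes were left out. The study sequenced polyadenylated RNA from both fragment ends, in a single group of 2 libraries that the labels call biological replicates 1 and 2. The cells carried Friend virus, a retrovirus known for causing erythroleukemia, and by the labels were positive for the surface markers CD34, CD133, Kit and Sca1. Their donors were male and female adults, 10 to 12 weeks old and pooled, of a mouse strain that has the Fv2 sensitive allele. The biosamples differ and the donor record is shared, so some of the spread between the replicates may be technical. With 1 group, no condition was compared and no p-value was computed. Levels are the authors' TPM, a share of transcripts corrected for length, and ratios have replicate 1 over replicate 2.

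A ribosome is built from a small subunit, which reads the mRNA, and a large subunit, which forms the peptide bond, and most of their proteins are present in a single copy each. In mammals the genes lie scattered over the genome, and many of their mRNAs begin with a C followed by a run of C and T bases, the TOP motif, through which their translation responds together to growth signals in the mTOR pathway. Erythroid precursors are among the cells most sensitive to a shortage of single ribosomal proteins. In people such a shortage causes Diamond-Blackfan anemia, a failure of red cell production.

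The sequences around the transcription start are shown for 12 of the members on which the levels and ratios below turn. Rplp1 and Rps29, also among these, had no such window. They are RefSeq windows on GRCm38.p6, which is mm10, with 15 bases before the annotated start and 15 from the start on, 5′ to 3′ on the gene's strand. Capitals mark the part inside the window of any run of 8 or more bases that are each C or T.
Rpl18 (chr7:45718056-45718085, plus strand): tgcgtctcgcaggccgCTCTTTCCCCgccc
Rpl27a (chr7:109519180-109519209, plus strand): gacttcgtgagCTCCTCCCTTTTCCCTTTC
Rplp2 (chr7:141447636-141447665, plus strand): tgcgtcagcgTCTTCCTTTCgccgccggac
Rpl7a (chr2:26910792-26910821, plus strand): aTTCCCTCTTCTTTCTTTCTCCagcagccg
Rps10 (chr17:27635230-27635259, minus strand): gcgccgcgcacgCCCCTTCCTTTCCagcct
Rps26 (chr10:128626492-128626521, minus strand): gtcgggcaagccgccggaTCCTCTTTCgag
Rps12 (chr10:23787195-23787224, minus strand): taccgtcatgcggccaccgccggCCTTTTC
Rps13 (chr7:116334176-116334205, minus strand): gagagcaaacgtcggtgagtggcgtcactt
Rps19 (chr7:24884661-24884690, plus strand): ccgcacggtgagtgagggctctgggtcgcg
Rpsa (chr9:120127751-120127780, plus strand): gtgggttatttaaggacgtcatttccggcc
Rps21 (chr2:180257364-180257393, plus strand): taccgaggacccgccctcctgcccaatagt
Rplp0 (chr5:115559452-115559481, plus strand): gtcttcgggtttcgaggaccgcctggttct
The first 7 of these windows hold all or part of such a run, and the last 5 hold none. Of the 84 members, 64 had a RefSeq window of 250 bases before and 50 after a start; where a gene had several, the one nearest to the start of its most abundant coding transcript was used, at a median distance of 29.5 bases. Of the 12 windows shown, those of Rps10 and Rps26 lay furthest from that start, at 769 and 241 bases. A run of 8 or more C or T bases lay within 25 bases on either side of the start in 29 of the 64 members (45.3%), against 19.7% of all 32851 windows in the table. The letters CCGGAAG, the core that ETS factors bind, stood on either strand in 26 members (40.6%), against 8.86% of all windows. AAGATGG, the core bound by YY1, stood on either strand in 9 members (14.1%), against 6.34%. Each member gave 1 window, while all windows were counted without such a choice, were not limited to detected genes and include those of the members. The shares thus come from unlike selections, and their difference was not tested. These are matches of letters in annotated windows and show neither a binding site nor the start used in these cells. Runs of C or T were found in 19 of 40 large-subunit and 10 of 24 small-subunit windows. They lay in 9 of the 20 windows of members counted below as apart toward replicate 1 and in 5 of the 7 toward replicate 2.

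Ribosomal protein transcripts were abundant and detected almost completely. Replicate 1 held 23575315 expected counts over all genes, and replicate 2 held 22541765. Of the 84 members, 81 had 1 TPM or more in both libraries, against 41.6% of protein-coding genes, among them all 32 small-subunit genes and 49 of the 52 large-subunit genes. The 3 others, Rpl39l, Rpl3l and Rpl10l, are tissue-restricted paralogs. A level of 100 TPM in both libraries was reached by 37 members, and a level of 1000 TPM by 14. The median member had a mean of 152 TPM, against 0.550 TPM for all protein-coding genes. By library, the member median was 229 TPM in replicate 1 and 81.9 TPM in replicate 2. Protein-coding genes at 1 TPM or more in the library had a median of 13.1 TPM in replicate 1 and 11.6 TPM in replicate 2. Members made up 25 and 16 of the 100 highest protein-coding genes in replicates 1 and 2.

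**Figure D1:**
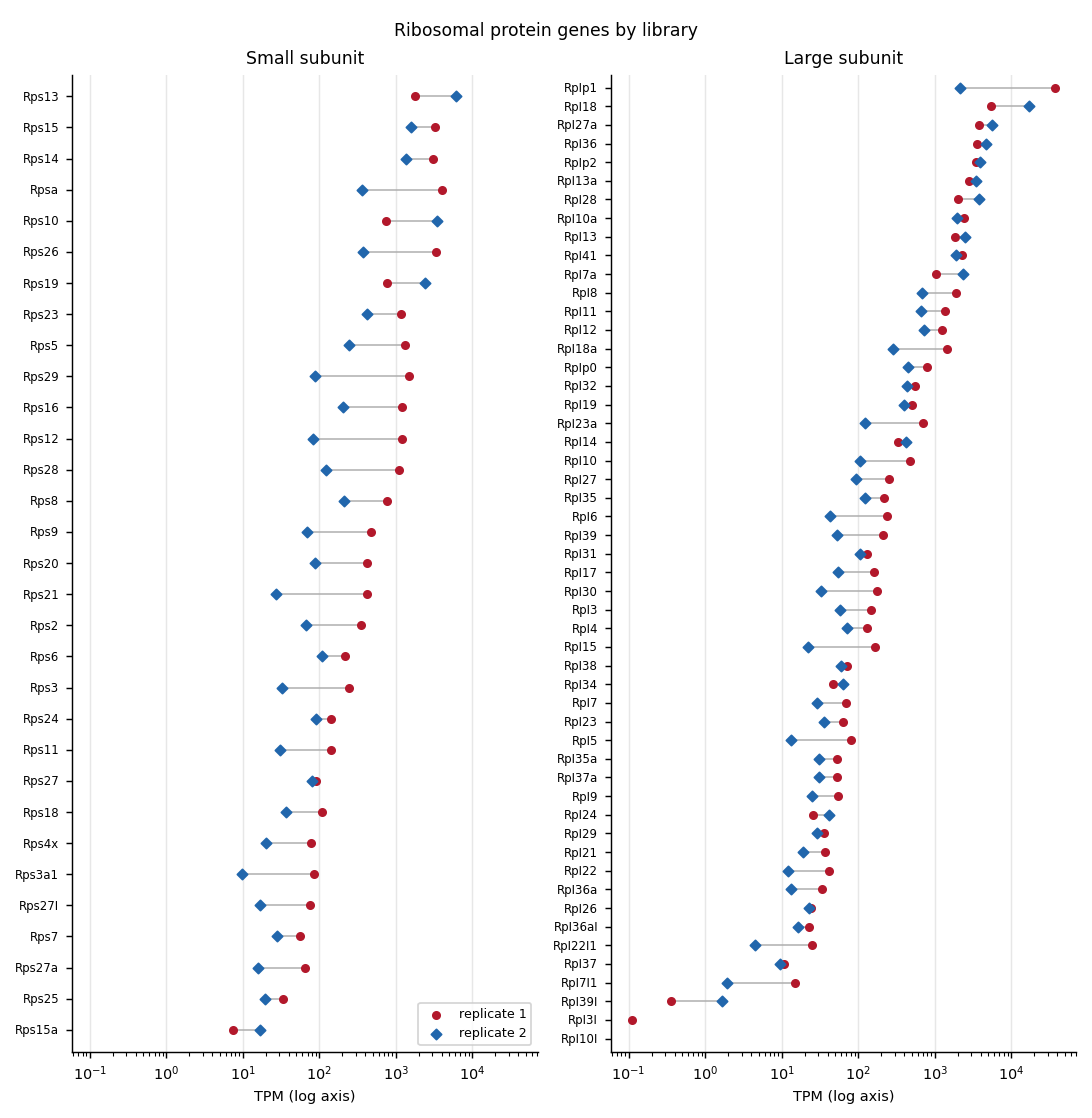
TPM of ribosomal protein genes on a log axis in replicate 1 (red circles) and replicate 2 (blue diamonds), with the small subunit on the left and the large on the right, ordered by mean TPM; values of 0 are not drawn, so Rpl10l has no point. Rplp1 stands highest in replicate 1 at 37799 TPM and Rpl18 in replicate 2 at 17083 TPM, and most small-subunit genes lie further right in replicate 1.

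The members did not stand at a common level in either library. The 90th percentile exceeded the 10th 119.8-fold in replicate 1 and 188-fold in replicate 2, and 79.4-fold and 151-fold without the 7 paralogs. No more than 19 members in replicate 1 and 23 in replicate 2 lay within 2-fold of the member median. Of all member TPM, the 5 highest members held 51.1% in replicate 1 and 51.4% in replicate 2, while the 42 lowest held 3.14% in replicate 1 and 1.74% in replicate 2. Their order was similar in the libraries, with a Spearman correlation of 0.89 over 82 members and 0.91 over 11708 protein-coding genes. These points share libraries and depth, so the correlations describe the pair of libraries only. Mean TPM of members had a Spearman correlation of 0.52 with the GC content of the leading coding transcript and −0.02 with its length, against 0.32 and −0.26 over 11680 protein-coding genes.

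The members together made up 10.7% of the TPM in replicate 1 and 7.28% in replicate 2, a mean of 8.99 ± 2.41% (SD, n = 2). Without Rplp1 that gap changed sign and was small: the other 83 members held 6.92% in replicate 1 and 7.07% in replicate 2. Without Rplp1 and Rpl18, which lean opposite ways, the share was 6.38% in replicate 1 and 5.36% in replicate 2. Of expected counts, which are not corrected for length, all 84 members held 4.53% in replicate 1 and 2.70% in replicate 2, and the 83 without Rplp1 3.38% in replicate 1 and 2.63% in replicate 2. The libraries also differed in other abundant transcripts. Of all TPM, globin genes held 10.99% in replicate 1 and 22.2% in replicate 2, and mitochondrially encoded mRNAs 3.89% in replicate 1 and 0.786% in replicate 2. As a share of nuclear protein-coding TPM without globins, the members held 13.7% in replicate 1 and 10.8% in replicate 2.

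Markers of the cells in the libraries were measured beside these shares. Of the 4 genes of the sorted surface markers, Kit and Ly6a reached 1 TPM in both libraries, at 1.81 and 1.06 TPM and 1.45 and 2.15 TPM in replicates 1 and 2, while Cd34 had 1.8 and 0.270 TPM and Prom1, which encodes CD133, 0.0600 and 0 TPM. All 6 erythroid genes examined reached 1 TPM in both, with a summed level of 8.98% of TPM in replicate 1 and 15.4% in replicate 2. Only Hba-a1 was higher in replicate 2, with 51056 TPM in replicate 1 and 133373 TPM in replicate 2. Hbb-bs (34716 and 18611 TPM), Klf1, Slc4a1, Epor and Gata1 were each higher in replicate 1. All 12 genes of macrophages, B cells, granulocyte-monocyte cells and endothelium also reached 1 TPM in both, with summed levels of 0.189% and 0.217%. Hba-a1 and Hbb-bs made up most of the erythroid sum. Gata1, the lowest of the 6 erythroid genes, had 308 TPM in replicate 1 and 75.03 TPM in replicate 2. Of the 12 other genes, 7 averaged at least 100 TPM. Among these, C1qc had 368 and 639 TPM and Cd79a 436 and 99.4 TPM in replicates 1 and 2. Transcripts of the sorted markers were thus scarce, and those of the globin genes abundant. Some of the other erythroid genes overlapped in level with genes of the other cell types. The part of cell composition in the ribosomal protein levels was not tested, and in bulk RNA fewer cells of a type and less RNA per cell cannot be told apart.

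The acidic stalk of the large subunit, which recruits the elongation factors, is made of the proteins of Rplp0, Rplp1 and Rplp2. Rplp1 (ENSMUSG00000007892, chromosome 9, 61913284 to 61914542, mm10) was the highest member in replicate 1, with 37799 TPM in replicate 1 and 2130.0 TPM in replicate 2. It ranked 2 among all protein-coding genes in replicate 1 and 35 in replicate 2. Its counts were 270720 and 14992, and its log2 ratio was the highest of any member, at 3.68 (95% interval 3.65 to 3.70). Rplp2 (chromosome 7, 141447370 to 141451585), its partner in the stalk dimer, had 3463 TPM in replicate 1 and 3877 TPM in replicate 2, with a log2 ratio of −0.995 (95% interval −1.01 to −0.98). Rplp0 (chromosome 5, 115559467 to 115563727), the base of the stalk, had 803 TPM in replicate 1 and 449.6 TPM in replicate 2 and a log2 ratio of 0.62 (95% interval 0.58 to 0.67). By gene totals Rplp1 and Rplp0 were higher in replicate 1 and Rplp2 in replicate 2. By coding transcripts alone Rplp2 had 1435 TPM in replicate 1 and 153 TPM in replicate 2, the opposite lean to its total, and Rplp0 had 499.8 TPM in replicate 1 and 241 TPM in replicate 2, so that each stalk gene was higher in replicate 1. With its copies added, described further on, the log2 ratio of Rplp0 was 1.69.

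Ratios were taken from expected counts scaled by TMM, for the 82 members and 11708 protein-coding genes with 20 or more counts over both libraries; Rpl3l and Rpl10l fell under this minimum. Intervals are exact and cover counting error only, not the spread between biological samples. A gene was counted as apart where its whole interval lay beyond 2-fold. Toward replicate 1, 29 of 82 members were apart (35.4%), against 14.5% of protein-coding genes. Toward replicate 2, 7 members were apart (8.54%), against 8.84%. With library totals in place of TMM, 34 members were apart toward replicate 1 and 5 toward replicate 2, against 2371 and 518 of all 11708 genes; under TMM these were 1699 and 1035. The median log2 ratio of members was 0.60, against 0.04 over all genes, and the spread of the members' ratios (SD 1.42) was close to that of all genes (SD 1.32). Among genes averaging at least 100 TPM, the 52 members had a median of 0.64 and an SD of 1.54, against −0.40 and 1.06 for all 1207. Among members, the ratio had a Spearman correlation of −0.23 with GC content, against −0.33 over all genes, and the part of base composition in these ratios was not tested.

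**Figure D2:**
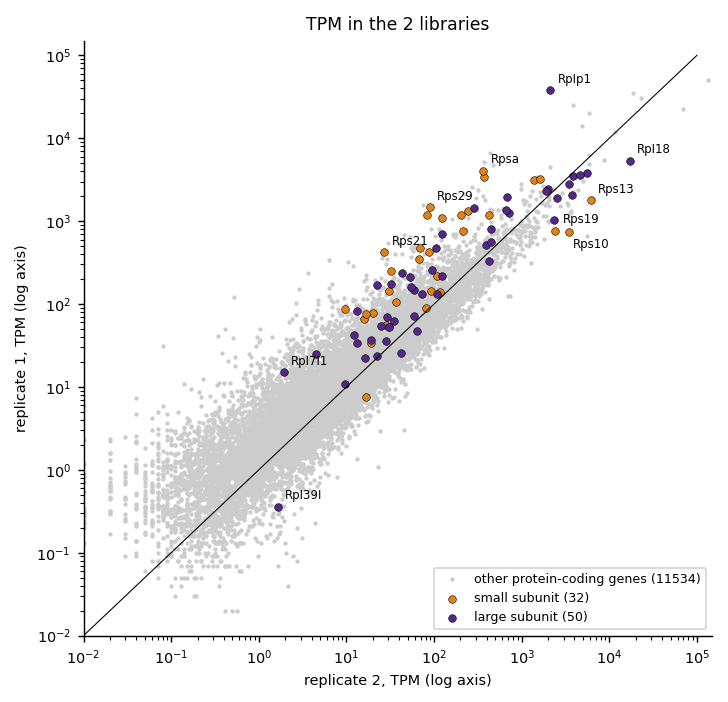
TPM in replicate 1 (vertical) against replicate 2 (horizontal), both on log axes, for protein-coding genes with 20 or more counts and a level above 0 in both libraries; small-subunit genes are orange, large-subunit genes purple, all others grey, and the line marks equal levels. Rplp1 and Rpsa lie far above the line, and Rpl18, Rps13, Rps10 and Rps19 below it.

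Small-subunit genes lay further toward replicate 1 than large-subunit genes, a difference that was not tested. Small-subunit genes had a median log2 ratio of 1.62, with 19 of 32 apart toward replicate 1 (59.4%) and 3 toward replicate 2 (9.38%). Large-subunit genes had a median of 0.37, with 10 of 50 apart toward replicate 1 (20%) and 4 toward replicate 2 (8%). The shares over all protein-coding genes were 14.5% and 8.84%. Of all TPM, large-subunit genes held 7.85% in replicate 1 and 5.48% in replicate 2, and small-subunit genes 2.85% in replicate 1 and 1.81% in replicate 2. Large over small was 2.76 in replicate 1 and 3.03 in replicate 2, a mean of 2.90 ± 0.194 (SD, n = 2). This likeness rested on Rplp1, without which the ratio was 1.43 in replicate 1 and 2.92 in replicate 2. By the median gene, the order of the subunits was the opposite: the large-subunit median was 0.407 of the small-subunit median in replicate 1 and 0.704 in replicate 2.

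The small-subunit genes furthest toward replicate 1 were Rps29, Rps21 and Rps12. Rps29 (chromosome 12, 69157722 to 69159186), which encodes a small zinc-binding protein of the subunit head, had 1469 TPM in replicate 1 and 88.8 TPM in replicate 2, from 7473 counts in replicate 1 and 440 in replicate 2. Its log2 ratio was 3.59 (95% interval 3.45 to 3.73). Rps21 (chromosome 2, 180257377 to 180258445), whose protein touches that of Rpsa, had 423 TPM in replicate 1 and 27 TPM in replicate 2 and a log2 ratio of 3.51 (95% interval 3.26 to 3.77). Rps12 (chromosome 10, 23785183 to 23787275), at the beak of the subunit, had 1189 TPM in replicate 1 and 83.5 TPM in replicate 2, with a log2 ratio of 3.36 (95% interval 3.24 to 3.49). By level these genes stood higher among the members in replicate 1, at ranks 17, 36 and 23 of 84, and at ranks 40, 64 and 42 in replicate 2. Rpsa (chromosome 9, 120127689 to 120132369), known also as the laminin receptor and needed to process the small-subunit rRNA, had 4069 TPM in replicate 1 and 366 TPM in replicate 2, from 138948 counts in replicate 1 and 12496 in replicate 2, and a log2 ratio of 2.98 (95% interval 2.95 to 3.005). Rps26 (chromosome 10, 128624534 to 128626747), which lines the channel through which mRNA leaves, had 3392 TPM in replicate 1 and 375 TPM in replicate 2 and a log2 ratio of 2.71 (95% interval 2.65 to 2.77).

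The opposite lean was found in 3 small-subunit genes. Rps10 (chromosome 17, 27630418 to 27636669), near the mRNA entry, had 743 TPM in replicate 1 and 3471 TPM in replicate 2, with a log2 ratio of −2.61 (95% interval −2.65 to −2.57). Rps13 (chromosome 7, 116331505 to 116334195), the small-subunit gene of highest mean level, had 1793 TPM in replicate 1 and 6201 TPM in replicate 2 and a log2 ratio of −2.27 (95% interval −2.29 to −2.24). Rps19 (chromosome 7, 24884371 to 24889806), the gene mutated most often in Diamond-Blackfan anemia, had 767 TPM in replicate 1 and 2423 TPM in replicate 2 and a log2 ratio of −2.002 (95% interval −2.05 to −1.95). Within 1 subunit, whose proteins are needed in equal numbers, the log2 ratios of transcripts thus spanned −2.61 to 3.59. Rps15, whose protein reaches the decoding site, and Rps14, whose loss in people contributes to the anemia of the 5q- syndrome, were among the next highest small-subunit genes. They had 3225 and 1599 TPM and 3104 and 1372 TPM in replicates 1 and 2, with log2 ratios of 0.47 and 0.69 that lay within 2-fold. The lowest small-subunit genes by mean level were Rps15a, Rps25, Rps27a, Rps7 and Rps27l, from 12.2 ± 6.63 TPM to 46.4 ± 41.8 TPM (SD, n = 2). Rps25 is known for its part in internal initiation of viral mRNAs, and Rps7 for binding Mdm2. Rps27a, whose product is made as a fusion to ubiquitin, had 65.5 TPM in replicate 1 and 15.9 TPM in replicate 2. Rps15a differed in direction by unit: it had 7.50 TPM in replicate 1 and 16.9 TPM in replicate 2, but 486 counts in replicate 1 and 115 in replicate 2, and its log2 ratio was 1.58 by scaled counts and −1.17 by TPM. Its leading transcripts differed between the libraries, Rps15a-204 with 84% of its TPM in replicate 1 and Rps15a-203 with 82.6% in replicate 2.

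After Rplp1, the highest large-subunit genes were Rpl18, Rpl27a, Rpl36 and Rplp2. Rpl18 (chromosome 7, 45715457 to 45720836) was the highest member in replicate 2, with 5383 TPM in replicate 1 and 17083 TPM in replicate 2 and a log2 ratio of −1.40 (95% interval −1.42 to −1.39). Rpl27a (chromosome 7, 109519147 to 109522367) had 3756 TPM in replicate 1 and 5582 TPM in replicate 2 and a log2 ratio of −1.04 (95% interval −1.06 to −1.02) and so just beyond 2-fold. It lay inside 2-fold under total-count scaling, at −0.73, and by deposited TPM, at −0.57. Rpl36 had 3602 TPM in replicate 1 and 4675 TPM in replicate 2, with a log2 ratio of −0.84 (95% interval −0.86 to −0.81), within 2-fold. Rpl7a (chromosome 2, 26910764 to 26913318) also stood apart toward replicate 2, with 1039 TPM in replicate 1 and 2356 TPM in replicate 2 and a log2 ratio of −1.67 (95% interval −1.70 to −1.65). By scaled counts each of these 4 genes was higher in replicate 2, unlike Rplp1. The large-subunit genes with most of the distance toward replicate 1 after Rplp1 were Rpl15, with 168 TPM in replicate 1 and 22.3 TPM in replicate 2 and a log2 ratio of 2.48 (95% interval 2.33 to 2.64), and Rpl7l1, described with the paralogs.

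Rpl5 and Rpl11 form a particle with the 5S rRNA that joins the large subunit and can also bind the p53 regulator Mdm2. Rpl11 had 1380.0 TPM in replicate 1 and 668 TPM in replicate 2, while Rpl5 had 81.5 TPM in replicate 1 and 13.4 TPM in replicate 2. Their log2 ratios were 0.56 (95% interval 0.52 to 0.59) and 1.92 (95% interval 1.72 to 2.13). Copies of Rpl5 had 34.01 TPM in replicate 1 and 19.5 TPM in replicate 2, and with them its log2 ratio was 1.25. The lowest large-subunit genes were Rpl10l, Rpl3l, Rpl39l, Rpl7l1 and Rpl37, of which the first 4 are paralogs. Rpl37, a zinc-binding protein gene and the lowest canonical large-subunit gene, had 10.8 TPM in replicate 1 and 9.56 TPM in replicate 2, from 156 counts in replicate 1 and 138 in replicate 2. The libraries did not differ in it beyond counting error, at a log2 ratio of −0.32 (95% interval −0.66 to 0.02).

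Some ribosomal proteins have a second gene, often expressed in few tissues. Rpl3l, a muscle paralog of Rpl3, had 1 count in replicate 1 and 0 in replicate 2, where the floor of 3 counts allows up to 0.175 TPM, while Rpl3, near the peptidyl transferase centre, had 148 TPM in replicate 1 and 58.3 TPM in replicate 2. Rpl10l, a testis paralog of Rpl10, had 0 counts in both libraries, which allows up to 0.171 TPM in replicate 1 and 0.171 TPM in replicate 2; Rpl10, needed for the last steps of large-subunit assembly, had 478 TPM in replicate 1 and 105 TPM in replicate 2. Rpl39l had 3 counts in replicate 1 and 17 in replicate 2, against 1988 and 495 for Rpl39, whose protein lines the exit tunnel. These 3 paralogs were at or near 0. By gene total, other paralogs were expressed beside their partners. Rps27l, a p53 target, had 76.01 TPM in replicate 1 and 16.9 TPM in replicate 2, and Rps27 had 90.6 TPM in replicate 1 and 80.3 TPM in replicate 2. Rpl22l1 had 25.1 TPM in replicate 1 and 4.47 TPM in replicate 2, and Rpl22 had 41.8 TPM in replicate 1 and 12.3 TPM in replicate 2. By transcripts annotated as coding alone, Rpl22l1 had 2.36 and 0 TPM in replicates 1 and 2, and Rpl22 had 2.09 and 6.70 TPM. Rpl36al had 22.5 TPM in replicate 1 and 16.3 TPM in replicate 2, and Rpl36a had 33.7 TPM in replicate 1 and 13.1 TPM in replicate 2. Rpl7l1 had 15.2 TPM in replicate 1 and 1.94 TPM in replicate 2, and Rpl7 had 69.9 TPM in replicate 1 and 29.2 TPM in replicate 2; the log2 ratio of Rpl7l1 was 2.46 (95% interval 2.16 to 2.79) and that of Rpl7 0.83 (95% interval 0.67 to 1.001). By gene total, each of these 4 paralogs had a lower mean level than its partner, by 19.4 against 23.4 TPM in the closest pair, Rpl36al and Rpl36a. Rps4x, the X-linked gene whose paralog Rps4l was not analysed here, had 77.3 TPM in replicate 1 and 19.9 TPM in replicate 2.

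A chosen list held 18 members as mouse counterparts of ribosomal protein genes mutated in Diamond-Blackfan anemia, and all were expressed. All 18 had 1 TPM or more in both libraries, and 12 averaged at least 100 TPM. Their median log2 ratio was 0.47, against 0.60 over all members tested. Toward replicate 1, 5 were apart (27.8%), against 35.4% of members and 14.5% of protein-coding genes. Toward replicate 2, 3 were apart (16.7%), against 8.54% of members and 8.84% of protein-coding genes. Those apart toward replicate 1 were Rps29, Rps26, Rps28, Rpl15 and Rpl5, and those toward replicate 2 Rps10, Rps19 and Rpl18. Rps28, whose protein lies where mRNA leaves, had 1093 TPM in replicate 1 and 123 TPM in replicate 2 and a log2 ratio of 2.59 (95% interval 2.48 to 2.71). The 10 others lay within 2-fold or across it, with log2 ratios from −0.67 in Rpl26, whose TPM was 23.8 in replicate 1 and 22.5 in replicate 2, to 0.66 in Rpl27. Rpl26 had 289 TPM in replicate 1 and 152 TPM in replicate 2 in its copies, and with them its log2 ratio was 0.32, of the other sign. By gene alone, levels ran from 23.2 ± 0.933 TPM in Rpl26 to 11233 ± 8273 TPM in Rpl18 (SD, n = 2). Rps24, Rps7, Rpl31, Rpl35, Rpl35a and Rps27 had means of 117, 42.2, 119, 171, 42.1 and 85.5 TPM.

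Some ribosomal proteins and proteins bound to the ribosome carry other symbols and fall outside the rule. Fau encodes the small-subunit protein eS30 fused to a ubiquitin-like protein, and had 2685 TPM in replicate 1 and 1739 TPM in replicate 2. Its log2 ratio was 0.08, within 2-fold. Rack1, a scaffold protein bound to the small subunit, had 6584 TPM in replicate 1 and 437 TPM in replicate 2 and a log2 ratio of 3.29 (95% interval 3.25 to 3.32). It thus stood with Rpsa and Rplp1 among the abundant genes far higher in replicate 1.

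Other genes of the protein-making machinery were set beside the members. Of 38 translation factors, 11 were apart toward replicate 1 (28.9%) and 2 toward replicate 2 (5.26%), against 14.5% and 8.84% of protein-coding genes. Their median log2 ratio was 0.50 and their median level 98.04 TPM. The most abundant were the initiation factor gene Eif4g2, with 4503 TPM in replicate 1 and 2096 TPM in replicate 2, Tpt1, itself known for a TOP mRNA, with 2311 TPM in replicate 1 and 1878 TPM in replicate 2, and Eif5a, which helps peptide bonds form, with 1789 TPM in replicate 1 and 2030.2 TPM in replicate 2. Of 38 ribosome biogenesis genes, 10 were apart toward replicate 1 (26.3%) and 3 toward replicate 2 (7.89%). They had a median log2 ratio of 0.40 and a median level of 39.6 TPM. Their most abundant members were the pre-rRNA processing gene Rrp9, with 613 TPM in replicate 1 and 954 TPM in replicate 2, the large-subunit assembly factor gene Eif6, with 503 TPM in replicate 1 and 553 TPM in replicate 2, and the nucleolin gene Ncl, with 476 TPM in replicate 1 and 472 TPM in replicate 2. Mitochondrial ribosomal protein genes, whose products serve the ribosome inside mitochondria, had a median log2 ratio of 0.05 over 77 genes and a median level of 33.2 TPM. Of these 77, 15 were apart toward replicate 1 (19.5%) and 7 toward replicate 2 (9.09%). Mrpl52, Mrpl2 and Mrpl12 led them, with 1328 and 3651 TPM, 827 and 820.0 TPM and 278 and 500.1 TPM in replicates 1 and 2. The difference between these lists and the members was not tested.

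**Figure D3:**
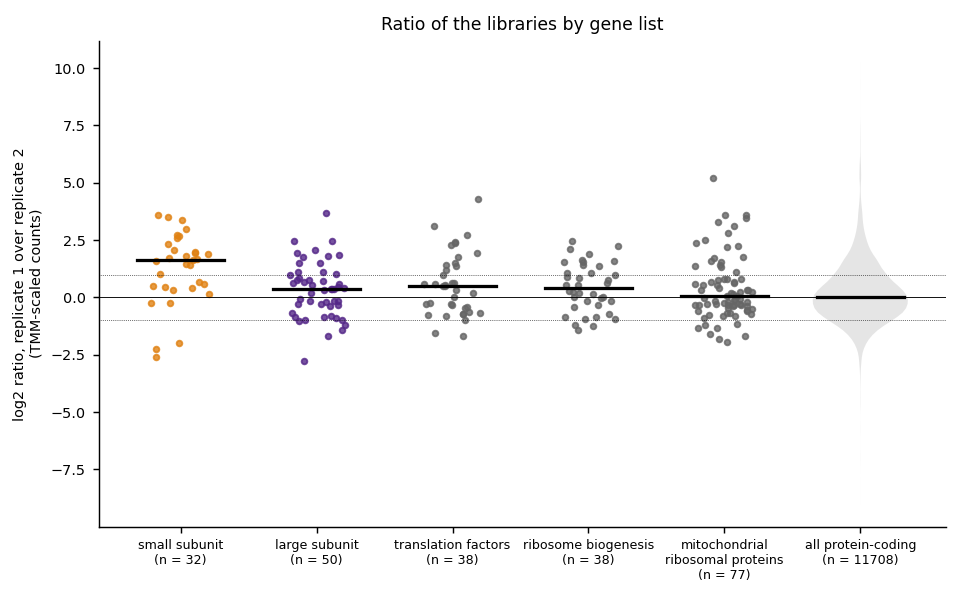
Log2 ratio of TMM-scaled counts, replicate 1 over replicate 2, for each gene of 5 lists (points, spread sideways at random) and for all protein-coding genes with 20 or more counts (grey shape); black bars are medians and dotted lines mark 2-fold. The small-subunit median is 1.62 and the large-subunit median 0.37, while the bar for all genes lies at 0.04.

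Transcript forms were read from the authors' estimates of how each gene's TPM divides over its transcripts. Of member TPM, transcripts annotated as coding in GENCODE M21 held 84.6% in replicate 1 and 49.7% in replicate 2. Retained-intron transcripts held 11.2% in replicate 1 and 20.2% in replicate 2, and transcripts of the authors' gene models that M21 does not list held 2.46% in replicate 1 and 27.3% in replicate 2. Much of the last value in replicate 2 was 1 transcript of Rpl18, of 450 bases, which made up 1.66% of the Rpl18 level in replicate 1 and 95.9% in replicate 2. The coding transcript Rpl18-201 held 98.1% of its gene in replicate 1 and 4% in replicate 2. By coding transcripts alone, Rpl18 thus had 5279.5 TPM in replicate 1 and 683 TPM in replicate 2, the opposite lean to the gene total. Of the 82 members with 20 or more counts, 5 were higher in the other library by coding transcripts than by gene total, namely Rpl18, Rplp2, Rpl13a, Rpl3 and Rpl22. Coding transcripts of Rpl3 had 31.1 TPM in replicate 1 and 41.8 TPM in replicate 2, and those of Rpl22 2.09 TPM in replicate 1 and 6.70 TPM in replicate 2. Rplp1 had a single transcript in the tables, Rplp1-201, which is coding.

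Of 60 members with more than 1 transcript and 1 TPM or more in both libraries, 39 had the same leading transcript in both. It was coding in 27 of these and a retained-intron transcript in 7: Rpl27a, Rplp2, Rpl10a, Rpl13, Rpl12, Rps19 and Rps16. By TPM, the transcript Rps19-206, of 395 bases, held 85.9% of its gene in replicate 1 and 91.5% in replicate 2. Rplp2-206 held 58.4% of its gene in replicate 1 and 95.9% in replicate 2, Rpl27a-204 held 74.6% of its gene in replicate 1 and 67.97% in replicate 2, and the leading transcript of Rpl12 held 88.4% of its gene in replicate 1 and 82.7% in replicate 2. Over the 60 members, the leading transcript made up a median of 73.5% of the gene's level in replicate 1 and 78.1% in replicate 2, a mean of 75.8 ± 3.27% (SD, n = 2). Rpl13a had 89.9% of its TPM in replicate 1 and 99.5% in replicate 2 outside coding transcripts, and its leading transcripts were a different unlisted one in each library. Transcripts of 1 gene share most of their sequence, so these shares are estimates from shared fragments. More than 50% of the TPM lay in transcripts not annotated as coding for 20 members in replicate 1 and 17 in replicate 2.

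**Figure D4:**
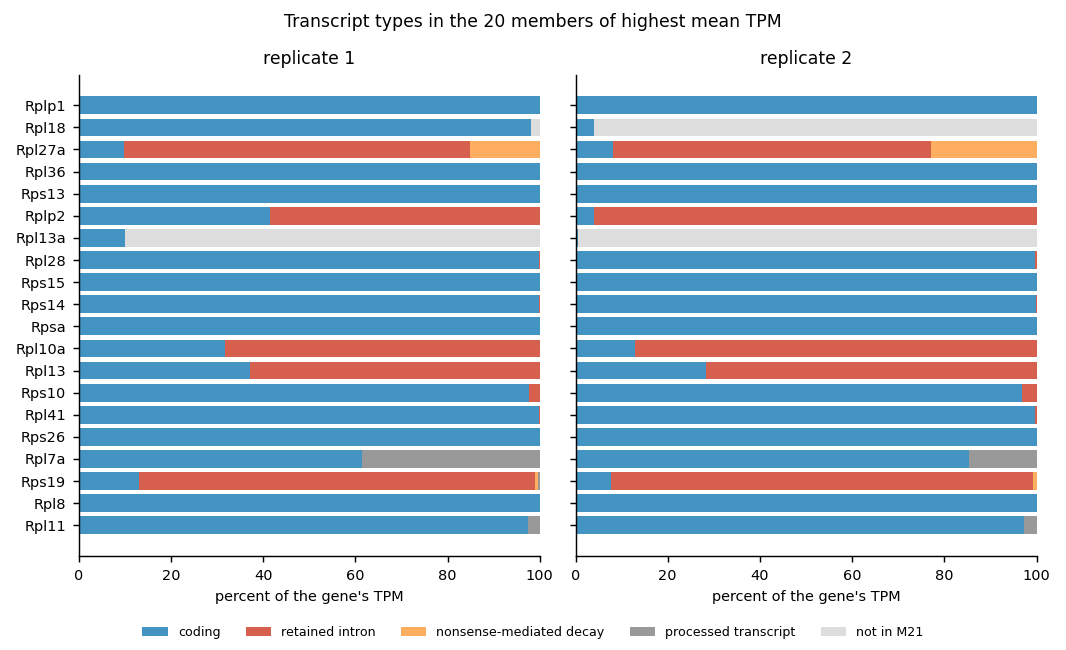
Percent of each gene's TPM by annotated type of transcript in replicate 1 (left) and replicate 2 (right), for the 20 ribosomal protein genes of highest mean TPM. Rplp1, Rpl36 and Rps13 are wholly coding in both libraries, Rpl27a, Rplp2, Rpl13 and Rps19 are mostly retained intron in both, and Rpl18 is 98.1% coding in replicate 1 and 3.999% coding in replicate 2.

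Ribosomal protein genes have more processed pseudogenes than most gene families, and fragments from a gene and its copies can be hard to tell apart. Copies were genes outside the members and not overlapping them that share 100 or more words of 25 bases with a member's coding transcripts in M21. At least 1 copy was found for 79 of 84 members, with a median of 5 and at most 91, for Rpl7a. The 583 copies in the tables made up 1.90% of the TPM in replicate 1 and 1.24% in replicate 2, or 17.8% and 17.1% as much as the members. In 10 members in replicate 1 and 11 in replicate 2 the copies summed to more TPM than the gene itself. The posterior SD of the count, the authors' measure of uncertainty within a library, had a median of 0.128% and 0.108% of the member's count in replicates 1 and 2.

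The widest gap was in Rpl29, a large-subunit gene, with 35.9 and 28.6 TPM for the gene and 4509.6 and 6862 TPM for its copies in replicates 1 and 2. A pair of processed pseudogenes, Gm13841 and Gm8210, held most of it, with an identical 2247 TPM each in replicate 1 and 2574 TPM each in replicate 2. Counted with its copies, Rpl29 had 4545 TPM in replicate 1 and 6891 TPM in replicate 2, which would place it among the highest members instead of near the lowest. Rps18, at the head of the small subunit, had 107 and 36.4 TPM for the gene and 2155 and 376 TPM for its copies, most of it in Gm10260, which M21 lists as protein-coding, with 2024 and 359.9 TPM. Rps2, near the mRNA entry, had 349.7 and 66.9 TPM for the gene and 2820.3 and 939 TPM for its copies, most of it in Rps2-ps10 with 2773 and 932 TPM. Rplp0 had 803 and 449.6 TPM for the gene and 4126 and 679 TPM for its copies, and Rpl23a, near the exit of the tunnel, 708 and 122 TPM for the gene and 1891 and 255 TPM for its copies. The single levels of these genes, and of Rpl26 and Rpl5, are therefore uncertain. Adding copies moved the ratio by more than 1.5 times in 5 members: to a log2 ratio of 1.69 in Rplp0, 1.90 in Rps18, −1.07 in Rpl29, 1.25 in Rpl5 and 0.32 in Rpl26, against 0.62, 0.57, −0.16, 1.92 and −0.67 without them. Rps10 had 650.1 and 1435 TPM in its copies, mostly Rps10-ps2, and with them its log2 ratio was −2.25. For Rplp1, Rpsa, Rps29, Rps21, Rps12 and Rps13 the log2 ratio with copies was close to the ratio without them, at 3.68, 2.94, 3.59, 3.51, 3.32 and −2.25.

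**Figure D5:**
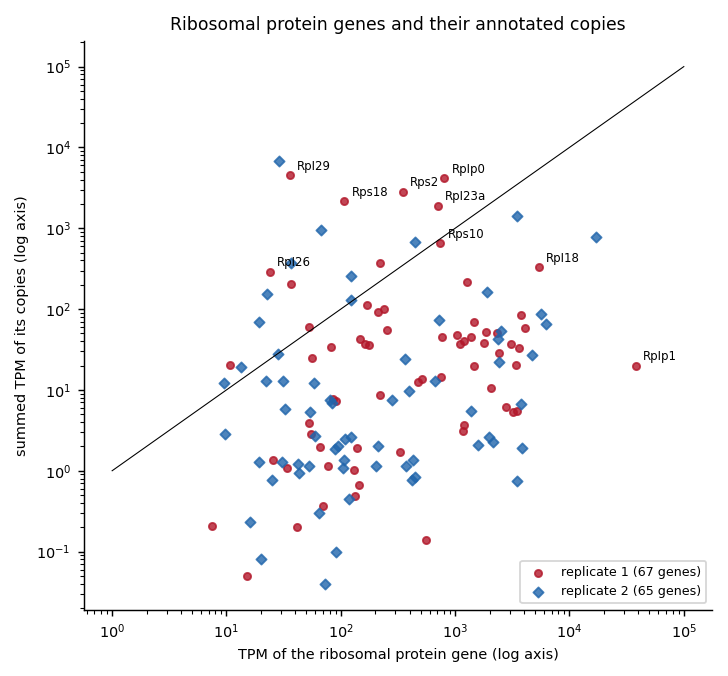
Summed TPM of the copies of each ribosomal protein gene (vertical) against the TPM of the gene (horizontal), both on log axes, in replicate 1 (red circles) and replicate 2 (blue diamonds); genes with 0 TPM in their copies are not drawn, names mark the replicate 1 points, and the line marks equal levels. Rpl29 lies furthest above the line, and Rplp1 far below it at 19.95 TPM of copies in replicate 1.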

How the data were processed

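RNA described as polyadenylated was measured in 2 libraries of 1 group. Per the readme deposited with the files, the authors used mm10 and the GENCODE M4 genes and transcripts. Names of the aligner and quantifier were not given in the sources used here, though RSEM writes such columns. Per the file headers, the deposited expected counts are estimated fragments that need not be whole, TPM and FPKM are corrected for length, and the transcript share is a percent of the gene's TPM. The posterior SD of the count, deposited by the authors, was read as a percent of the count. Symbols, gene types and positions came from GENCODE M21 on the same assembly, matched by identifier for 42462 of 43346 Ensembl rows of 69691.

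Expected counts were rounded for edgeR 4.0.16 in R 4.3.3, whose TMM factors scaled the ratios, with a prior count of 0.5; DESeq2 1.42.0 size factors were an alternative. Exact 95% Clopper-Pearson intervals, and floors of 3 counts, cover counting error only. The interval rule was run on counts simulated with counting error alone, as the rule assumes. That run checked the calculation and could not address the spread between libraries or fragments shared with copies. There was no group to test against. Tables were handled in Python 3.11.15 with pandas 2.3.3 and scipy 1.17.1, and figures drawn with matplotlib 3.10.9.

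The members and gene lists were chosen with earlier results of these data known. Named members were the 4 stalk and Rpsa genes, the 5 highest and 5 lowest by mean TPM in each subunit, the 5 with the largest log2 ratio in each direction, the 18 anemia genes and 8 paralog pairs; Fau, Rack1 and the 3 most abundant genes of each other list were added. Rpl29, Rps18, Rps2, Rpl23a, Rps16, Rpl13, Rpl12, Rpl13a and Rpl10a, and the copies, were named after their values had been seen. Single values of a few such genes are not reported here.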

Additional observations from a re-analysis of the deposited data

How the results depend on the processing

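No paired analysis was possible because there was a single group. Of the 71 alternative values of the summary results, 57 stayed within the spread between the libraries, within 0.1 for the median log2 ratio, or within 1.5 times for a count. Some of these could not have moved. A single library always lies within 1 SD of the mean of 2. FPKM cannot change a share or a ratio within a library, and rescaling cannot change large over small. The members' share of TPM was 12.3% over nuclear protein-coding genes without globins, 5.87% without Rplp1 and Rpl18 and 6.33% for coding transcripts alone, against 8.99% as reported; either library alone gave 7.28% to 10.7%. Large over small was 0.556 by the median gene, 2.17 without Rplp1, 1.61 without Rplp1 and Rpl18 and 1.95 for coding transcripts alone (2.53 in replicate 1 and 1.38 in replicate 2), against 2.90. The median member had 81.9 to 229 TPM in single libraries, 234 TPM with copies added and 106 TPM for coding transcripts alone. A minimum of 100 TPM left 37 members. The median log2 ratio was 0.91 with total-count scaling and 1.03 by deposited TPM, which also moved the median of all protein-coding genes to 0.35 and 0.45; relative to all genes, the members' median was 0.56 under TMM, 0.56 under total counts and 0.58 by TPM. It was 0.76 over the 26 members with no pseudogene named after them, and 0.79 with copies added. Toward replicate 2, 14 members were apart at 1.5-fold and 4 at 3-fold. The shares of all protein-coding genes at these folds were not computed, so these counts cannot be set against a background. At 2-fold the share toward replicate 2 was 8.54% of members, against 8.84% of all protein-coding genes. Among the alternative values of single named members, 9 ratios became apart and 4 were no longer so, the 4 being of Rpl27a and of Rpl39l, whose interval then reached 2-fold (−2.49 under total counts and −2.21 by TPM). The levels of Rpl3l and Rpl10l moved with posterior means. The other 312 stayed apart, stayed not apart or moved less than the spread, but 8 of them, all log2 ratios not counted as apart, changed sign, in 5 members that include Rpl26 (0.08 by TPM), Rpl36al (0.46), Rpl37 (0.17) and Rps27 (0.17). The 312 include the mean TPM of the 48 named members without replicate 1 and without replicate 2, which could not have moved. Rps15a reversed by deposited TPM, at −1.17. Leaving out Rplp1 or Rpl18, restricting to coding transcripts and adding copies were chosen after seeing the data; beyond what each setting leaves out, the cause of these moves was not tested. In highly counted members, precision was limited by the spread between the 2 libraries. For some, such as Rplp0, Rps2 and Rpl18, it was limited also by how fragments were divided over copies or transcripts. Rpl39l, at 3 and 17 counts, was limited by depth.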
